A study of Mus musculus with 143 samples.

Results

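Genes that store, import, export and release iron were followed in microglia, the resident macrophages of the brain. The 9 genes were taken by name from the count table: Ftl1 and Fth1 (ferritin), Trf, Tfrc, Slc11a1, Slc11a2, Slc40a1, Hmox1 and Ireb2, which are 9 of 23337 gene rows. All 9 had a read in at least 1 cell, and none was left out. The cells came from the cerebellum of wild type C57BL/6N male mice at postnatal day 7, pooled before sorting. The gate took CD45low CD11b+ Gpnmb+ Clec7a+ cells one at a time, a phenotype enriched for proliferative-region-associated microglia (PAM), and the cells were sequenced with Smart-seq2, which reads whole transcripts and uses no molecular identifiers. The table holds 143 cells of this 1 population, of which plate 1 gave 95 and plate 2 gave 48. Every cell carries the same group labels and none can be traced to an animal, so cells were not treated as replicates, the plates served as technical batches, and no p-value is given. The age and the title give postnatal day 7, although the name of the pooled library holds the word adult.

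Iron enters most cells as ferric iron bound to transferrin, through the transferrin receptor, and macrophages also recover it from the heme of engulfed cells. Inside the cell it is carried out of endosomes and phagolysosomes by divalent metal transporters, stored in cages built of ferritin heavy and light chains, or exported by ferroportin. Iron regulatory proteins bind short hairpins in messenger RNAs, called iron-responsive elements, when iron is scarce. Bound near the start of the transcript they block translation, and bound in the tail of the transferrin receptor message they protect it from decay, so for these genes the RNA level and the protein level can move apart.

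The hairpins are shown because a search for 1 strict form of them divides the 9 genes into those with a match and those without one. The search asked for a bulged C, 5 bases, the loop CAGTGN and 5 bases that pair with the first 5, on the transcript's own strand. It covered every protein-coding GENCODE M21 transcript of the 9 genes (GRCm38, the same assembly as mm10), and all matches lay in the principal transcript. In the sequences below, read 5′ to 3′, capitals mark the bulged C and the 6 bases of the loop.
Ftl1 5′ UTR, chr7:45459780-45459806, minus strand: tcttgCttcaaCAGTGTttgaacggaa
Fth1 5′ UTR, chr19:9982733-9982759, plus strand: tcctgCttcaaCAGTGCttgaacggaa
Slc40a1 5′ UTR, chr1:45925466-45925492, minus strand: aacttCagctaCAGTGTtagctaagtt
Tfrc 3′ UTR, chr16:32631220-32631246, plus strand: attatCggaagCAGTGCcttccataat
Tfrc 3′ UTR, chr16:32631599-32631625, plus strand: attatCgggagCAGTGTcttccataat
Tfrc 3′ UTR, chr16:32631664-32631690, plus strand: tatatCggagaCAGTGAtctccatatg
Tfrc 3′ UTR, chr16:32631711-32631737, plus strand: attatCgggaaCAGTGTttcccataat
Ftl1, Fth1 and Slc40a1 had 1 match each, in the 5′ UTR, and Tfrc had 4, in the 3′ UTR. Of 21842 principal transcripts, 0.0961% had a match in the 5′ UTR, 0.476% had a match in the 3′ UTR, and 1 transcript, that of Tfrc, had 2 or more there. Trf, Slc11a1, Slc11a2, Hmox1 and Ireb2 had no match, which says only that these letters with this pairing are not in those transcripts. A hairpin with a mispaired stem or another loop would be missed, so no match does not mean no iron-responsive element.

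Levels are in CPM, each count divided by the cell's gene counts and multiplied by 1000000, with spike-ins left out of the divisor. Total counts ran from 271190 to 1226521 per cell (median 760690) and detected genes from 1552 to 4955 (median 3255), with medians of 3200 genes on plate 1 and 3312 on plate 2. Shares of cells with at least 1 read are given with exact Clopper-Pearson 95% intervals, which cover counting error only. With 0 of 143 cells, up to 2.098% of cells could have a read by the limit of 3 counts, and up to 2.55% by the Clopper-Pearson bound. As a check of the label, Csf1r, the receptor microglia need to survive, had reads in all 143 cells, Gpnmb of the gate in 98.6% and Clec7a in 83.2%. The cells had 2 to 8 of the 9 genes, most often 5 (49 cells).

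Ferritin was the part of iron handling that every cell had, at high levels. Ftl1, the light chain of the ferritin cage, had reads in 143 of 143 cells (97.5 to 100%). Its median was 9891 CPM, with quartiles of 8389 and 11157, a lowest value of 5341 and a highest of 18609. The highest cell was thus only 3.48 times the lowest, and Ftl1 ranked 6 among all genes by pooled CPM (the gene's counts summed over cells as a share of all gene counts). Fth1, the heavy chain whose ferroxidase activity loads iron into the cage, was read in all 143 cells too. Its median was 2756 CPM, with quartiles of 2204 and 3555, from 1088 to 8438. It ranked 28. The plate medians were close for both chains, at 9569 and 9998 CPM for Ftl1 on plates 1 and 2, and 2914 and 2530 CPM for Fth1.

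Together the 2 chains took a median of 1.26% of a cell's gene counts, from 0.690 to 2.602%. Per kilobase of the principal transcript (968 bases for Ftl1, 929 for Fth1), Ftl1 stood above Fth1 in every cell, by a median of 3.42 times and a range of 1.69 to 7.22. The size of that ratio rests on the length used, since the union of all annotated Fth1 exons is 3469 bases, and Ftl1 has near-identical copies, annotated as Ftl1-ps1 and Ftl1-ps2, that are not rows of the table, so reads of a copy could be counted as Ftl1. Ftmt, mitochondrial ferritin, was read in 0 cells.

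**Figure D1:**
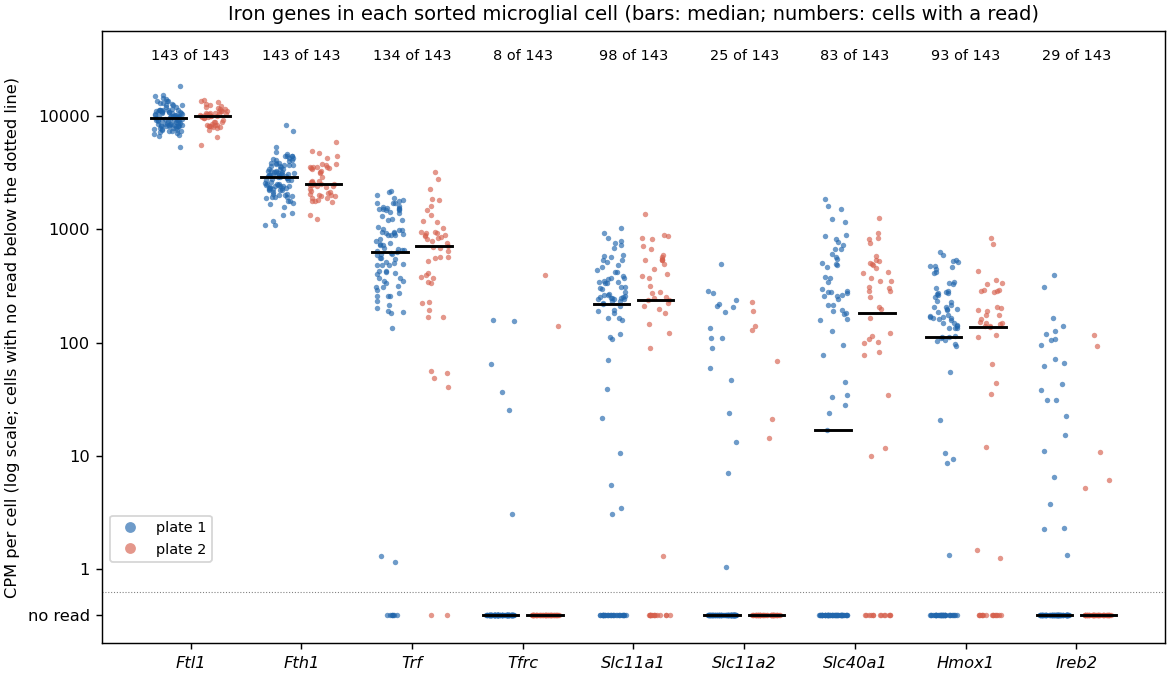
CPM of the 9 iron genes in each of the 143 cells on a log scale, plate 1 left of plate 2 for each gene, with a bar at the plate's median and cells without a read below the dotted line. Ftl1 and Fth1 form narrow bands above 1000 CPM, Slc11a1, Slc40a1 and Hmox1 split into cells with reads and cells with no read, and Tfrc, Slc11a2 and Ireb2 are read in 8, 25 and 29 cells.

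Transferrin was common and its receptor was not. Trf, the secreted iron carrier that is made in the brain mainly by oligodendrocytes and the choroid plexus, was read in all but 9 cells (93.7%, 88.4 to 97.1), in 92.6% on plate 1 and 95.8% on plate 2. Its median was 661 CPM, with quartiles of 337 and 1025 and a highest value of 3230. Tfrc, the receptor that takes up iron-loaded transferrin and which dividing cells and erythroid precursors carry in quantity, was read in 8 cells (5.59%, 2.45 to 10.7). Their levels were 397, 159, 157, 141.7, 65.2, 37.0, 25.2 and 3.06 CPM, the first and the fourth on plate 2 and the others on plate 1. The cell with the highest Tfrc was also the cell with the fewest genes detected, 1552.

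All 8 Tfrc cells also had Trf reads, against 93.7% of all cells. Slc40a1 was read in 1 of the 8, where independent detection of the 2 genes would put both in 3.25% of cells and both were found in 0.699%. These are counts over 8 cells and nothing was read from them. Genes of low level are often missed in a single cell, so the share of Tfrc limits cells with a read, not cells that make the receptor.

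The 2 divalent metal transporters differed in detection. Slc11a1, the Nramp1 transporter of the phagolysosome membrane of macrophages, was read in 98 cells (68.5%, 60.2 to 76.03), 68.4% on plate 1 and 68.8% on plate 2, with a median of 227 CPM, an upper quartile of 381 and a highest value of 1365. Slc11a2, the DMT1 transporter that carries iron out of endosomes, was read in 25 cells (17.5%, 11.6 to 24.7), with a highest value of 494 CPM and 43.3% of its summed CPM in 5 cells. Per kilobase of principal transcript the pooled level was 107.8 CPM for Slc11a1 and 8.47 for Slc11a2, so the phagolysosomal transporter was the more abundant on that scale. Exons of Slc11a2 overlap Gm5475 on the opposite strand by up to 197 bases, and no source used here says whether reads were counted by strand.

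The exporter was present in some cells at high level and unread in others. Slc40a1, which encodes ferroportin, the transporter that releases iron to the blood or to neighbouring cells, was read in 83 cells (58.04%, 49.5 to 66.2). Its median was 82.5 CPM over all cells and 296 CPM over the cells with a read, with an upper quartile of 361 and a highest value of 1861. It was read in 50.5% of cells on plate 1 (40.1 to 60.9), with a median of 16.96 CPM, and in 72.9% on plate 2 (58.2 to 84.7), with a median of 182 CPM. The plates are batches of the same pool, and their difference was not tested. The 5 highest cells held 21.4% of the summed CPM.

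Hmox1, the inducible heme oxygenase that opens the heme ring and frees its iron, was read in 93 cells (65.03%, 56.6 to 72.8), 63.2% on plate 1 and 68.8% on plate 2. Its median was 116.6 CPM, with an upper quartile of 213 and a highest value of 844. Its median in cells with a read was 177 CPM, and the 5 highest cells held 15.9% of its summed CPM. Ireb2, the iron regulatory protein that is removed when iron is plentiful, was read in 29 cells (20.3%, 14.02 to 27.8), 25.3% on plate 1 and 10.4% on plate 2. Only 19 of the 29 had 10 counts or more, and 51.5% of its summed CPM lay in 5 cells.

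On the scale of pooled CPM per kilobase of principal transcript, the order of the levels was Ftl1 at 10186, Fth1 at 3134, Trf at 304, Slc11a1 at 107.8, Hmox1 at 94.6, Slc40a1 at 70.6, Slc11a2 at 8.47, Ireb2 at 2.44 and Tfrc at 1.46. The middle of this order depends on the length used: with the union of all exons, a choice made after the values were seen, Hmox1 stood at 84.8, Slc11a1 at 67.4 and Slc40a1 at 26.4. In single cells the levels of these 3 genes overlapped, each starting from cells with no read, and those of Slc11a2, Ireb2 and Tfrc did too.

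Spread between cells was measured among 7789 genes read in at least 10% of cells. The measure, called the excess, was the log2 of a gene's squared coefficient of variation over a running median. That median took in up to 201 genes, centred on the gene in the order of mean level. Slc40a1 had an excess of 1.45 and ranked 42, with 1.74 on plate 1 and 0.77 on plate 2. Trf had 1.01, rank 144, with 0.76 and 1.44 on the plates. These were the most variable of the 9 genes for their level, and both were read in fewer cells than genes of like pooled CPM: 58.04% against a running median of 81.8% for Slc40a1, and 93.7% against 99.3% for Trf. Slc11a1 had an excess of 0.62 and was read in 68.5% of cells against 83.2% for its level. Hmox1 lay near the running median, with an excess of 0.09 and 65.03% of cells against 68.5%, as did Ireb2 at 0.13 and Slc11a2 at 0.31. The ferritin chains lay below it, Fth1 at -0.75 and Ftl1 at -2.22, rank 7702, and scaled to spike-ins they had -0.19 and -1.11. Both chains lie near the top of the level range, where the running median took in fewer genes, most of them of lower mean. The part of this in their excess was not tested. Tfrc, read in under 10% of cells, was not ranked.

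Relations between genes were described by Spearman's rho of CPM over the 143 cells, which share a pool, a plate and a scaling to each cell's total. The same measure was also taken within each plate, and values under 0.2 in size are given only so that none is left out. Of the 36 pairs among the 9 genes, 2 reached 0.2 in size, and both did so on both plates with the same sign. The first was Ftl1 with Fth1, at 0.49 over all cells, 0.45 on plate 1 and 0.58 on plate 2. Scaled to the spike-ins of each well, which leaves differences in total RNA per cell in the values, it was 0.71. The second was Slc40a1 with Trf, at 0.26 over all cells, 0.27 on plate 1 and 0.24 on plate 2, and 0.24 with the number of detected genes held constant.

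**Figure D2:**
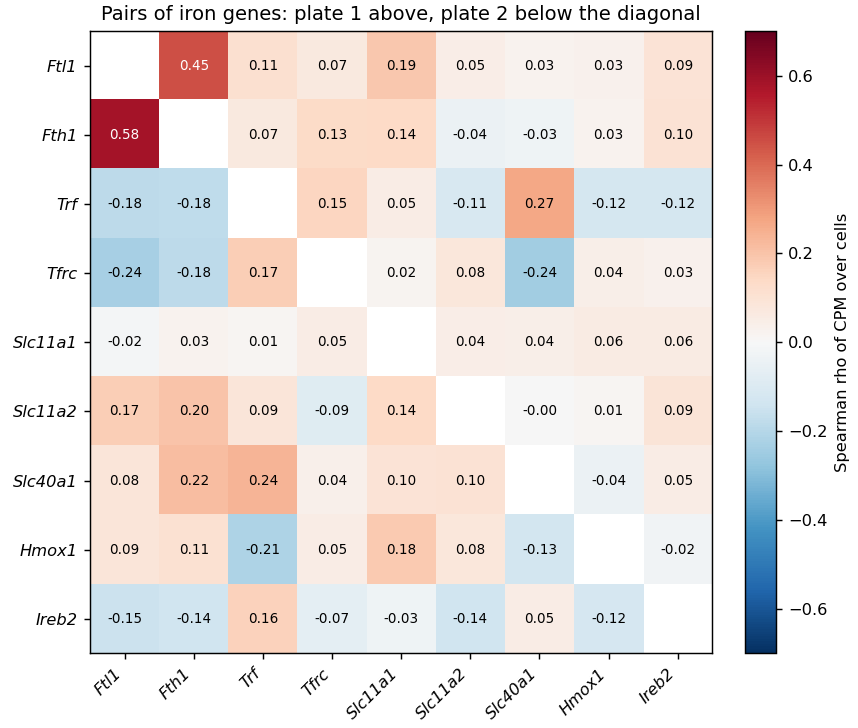
Spearman rho of CPM for each pair of the 9 iron genes, over 95 cells of plate 1 above the diagonal and 48 cells of plate 2 below it. The ferritin pair (0.45 and 0.58) and Trf with Slc40a1 (0.27 and 0.24) are the pairs at or past 0.2 on both plates.

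Neither ferroportin nor heme oxygenase reached 0.2 with a ferritin chain over all cells. Slc40a1 had a rho of 0.04 with Fth1 (-0.03 on plate 1 and 0.22 on plate 2) and of 0.06 with Ftl1 (0.03 and 0.08). Hmox1 had a rho of 0.05 with Fth1 (0.03 and 0.11) and of 0.04 with Ftl1 (0.03 and 0.09), and scaled to spike-ins these were 0.19 and 0.18. The rho between the 2 genes was -0.07 (-0.04 and -0.13). Both were read in 55 cells, 38.5%, where independent detection would give 37.7%, and 22 cells had neither.

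**Figure D3:**
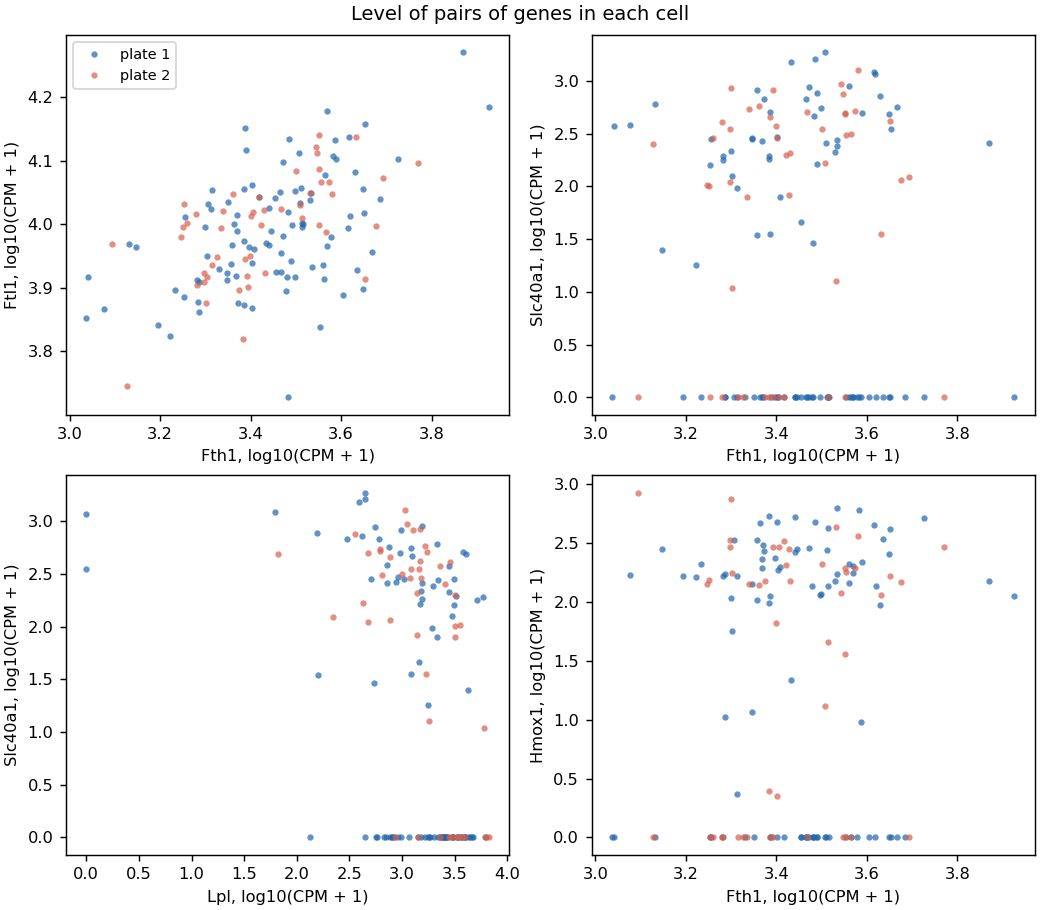
Level of pairs of genes in each cell, as log10(CPM + 1), with plates in different colours. Ftl1 and Fth1 rise together, Slc40a1 and Hmox1 are spread over the whole range of Fth1, and cells with no Slc40a1 read gather at the high end of Lpl.

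Slc40a1 was set against genes of PAM and of homeostatic microglia one by one. As background, of 7788 other genes read in at least 10% of cells, 1.52% had a rho with Slc40a1 at or above 0.2 and 3.48% at or below -0.2, and the median was -0.03. Of the 26 PAM genes, 3 were at or above 0.2 and 5 at or below -0.2, with a median of -0.03. The lowest was Lpl, lipoprotein lipase, at -0.46, with -0.40 on plate 1 and -0.61 on plate 2. The tetraspanin Cd9 followed at -0.34 (-0.32 and -0.40), and the galectin Lgals3 at -0.30 (-0.29 and -0.37). On the other side were Apoe, the lipid carrier, at 0.29 (0.21 and 0.50), the lysosomal protease Ctsb at 0.29 (0.29 and 0.42) and Trem2, a lipid-sensing receptor, at 0.21 (0.23 and 0.30). Scaled to spike-ins, Lpl was at -0.40, Cd9 at -0.20 and Lgals3 at -0.23, and with the number of detected genes held constant they were at -0.45, -0.33 and -0.28.

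Of the 25 homeostatic genes read in at least 10% of cells, 2 were at or above 0.2 with Slc40a1 and 0 at or below -0.2, and the median was 0.06. Serinc3, which encodes a serine incorporator, had 0.25 (0.21 and 0.38). P2ry12, the purinergic receptor of surveying microglia, and the transcription factor Maf each had 0.20, with 0.24 and 0.23 on the plates for P2ry12 and 0.20 and 0.23 for Maf, and P2ry12 lay just under the limit over all cells (0.199). On both plates 14 of the 25 were positive and 2 negative, where 19.7% of all 7788 genes were positive on both and 36.8% negative on both. These values are small, and the list holds no gene that moved with Slc40a1 as far as Lpl moved against it.

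Hmox1 was set against the same lists. Of 7788 genes, 0.976% were at or above 0.2 with Hmox1 and 0.796% at or below -0.2. Of the PAM genes, 3 of 26 were at or above 0.2 and 0 at or below -0.2, with a median of 0.01, and of the homeostatic genes 0 of 25 and 1 of 25, with a median of -0.03. The PAM gene that passed 0.2 on both plates was Csf1, a growth factor of macrophages, at 0.24 (0.21 and 0.29). The homeostatic gene was Cx3cr1, the fractalkine receptor, at -0.21, with -0.11 on plate 1 and -0.43 on plate 2. Across all genes, the plate 1 and plate 2 values with Hmox1 had a Pearson correlation of 0.006, beside 0.19 for Slc40a1, 0.15 for Fth1 and 0.28 for Ftl1. With Hmox1, 15 of the 7788 genes were at or above 0.2 on both plates and 20 at or below -0.2.

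**Figure D4:**
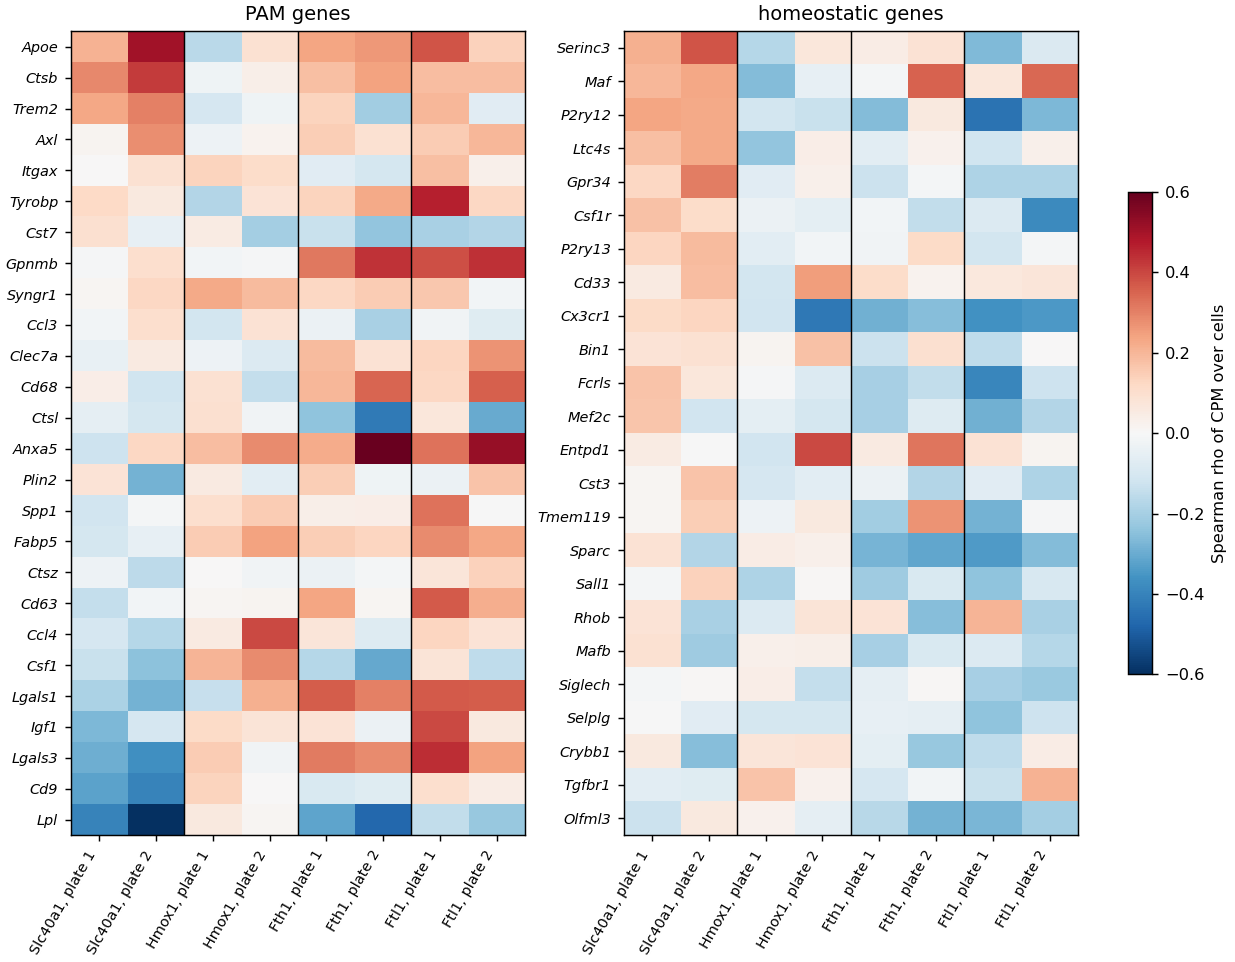
Spearman rho over cells of Slc40a1, Hmox1, Fth1 and Ftl1 with PAM genes and homeostatic genes, plate 1 and plate 2 side by side, genes ordered by rho with Slc40a1 over all cells. Slc40a1 runs from Apoe and Ctsb to Cd9 and Lpl within the PAM list, and Ftl1 is negative with most homeostatic genes on both plates.

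The ferritin chains were set against the lists in the same way. Of all genes, 2.72% were at or above 0.2 with Ftl1 and 5.73% at or below -0.2, and 1.72% and 2.54% with Fth1. Of 26 PAM genes, 10 were at or above 0.2 with Ftl1 and 0 at or below -0.2, with a median of 0.16, and for Fth1 the counts were 6 and 3, with a median of 0.11. Gpnmb, a protein of the gate, had 0.40 with Ftl1 (0.39 and 0.44) and 0.34 with Fth1 (0.32 and 0.43). The calcium-binding Anxa5 had 0.39 and 0.34, Lgals1 0.36 and 0.34, and Lgals3 0.37 and 0.30 with Ftl1 and Fth1. Lgals3 was thus positive with both ferritin chains and negative with Slc40a1. Lpl was low with Fth1, at -0.36 (-0.32 and -0.47), as were the protease Ctsl at -0.32 (-0.24 and -0.43) and Csf1 at -0.23 (-0.17 and -0.31). Scaled to spike-ins, these were 0.02 for Lpl, 0.22 for Ctsl and 0.01 for Csf1.

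Of the homeostatic genes, 12 of 25 were at or below -0.2 with Ftl1 and 0 at or above 0.2, with a median of -0.19. With Fth1 the counts were 3 and 0, with a median of -0.06, and the 3 were at or below -0.2 on both plates. Among them, Cx3cr1 had -0.29 (-0.29 and -0.25) and Sparc -0.29 (-0.28 and -0.31) with Fth1, and 0.005 and -0.07 when scaled to spike-ins. P2ry12, not among the 3, was at -0.15 with Fth1 over all cells, -0.26 on plate 1 and 0.06 on plate 2. With Ftl1, P2ry12 had -0.39 (-0.44 and -0.27), Cx3cr1 -0.35 (-0.36 and -0.35) and Sparc, a matrix protein, -0.30 (-0.34 and -0.26). Scaled to spike-ins, the median of the homeostatic list with Ftl1 turned to 0.08 and that of PAM genes was 0.49, while the median of all genes also moved, to 0.12, so the homeostatic list stayed below all genes but no longer below 0. P2ry12 kept its sign with Ftl1, at -0.25, and Cx3cr1 and Sparc did not, at 0.09 and 0.02. Ftl1 CPM also ran lower in deeper cells, with a rho of -0.35 with a cell's gene counts, and the part of depth in these values was not tested.

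The genes most like Slc40a1, by the smaller of the 2 plate values among 2186 genes read in at least 50% of cells, were Lyz2, lysozyme, at 0.39 over all cells (0.37 on each plate), the metalloprotease inhibitor Timp2 at 0.34, the complement component C1qc at 0.31 and the lysosomal activator Gm2a at 0.35. Itm2b at 0.32, the selenium carrier Sepp1 at 0.32, the scavenger receptor Stab1 at 0.28 and Ctsb at 0.29 came next. The 5 lowest were Lpl, the proteasome subunit Psmb6 at -0.37, Cd9, the chaperone Hspa5 at -0.37 and profilin, Pfn1, at -0.37. Scaled to spike-ins, Pfn1 was at -0.17.

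For Hmox1 the first was Hif1a, a transcription factor of the response to low oxygen, at 0.35 (0.34 and 0.35). The next 7 were Snrpc at 0.29, Commd7 and Csf1 at 0.24 each, and Atp5g2, Nars, Atp6v0d1 and 0610012G03Rik at 0.22 each. The lowest 5 were 1700020I14Rik at -0.28, Irf2 at -0.25, Ccdc47 at -0.23, Il6ra at -0.22 and Eif3k at -0.20. Apart from Hif1a, none reached 0.3 in size.

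For Fth1 the most like genes were Ftl1, Gpnmb at 0.34 and the RNA editing factor Apobec1 at 0.38, and for Ftl1 they were Fth1, Serpinb6a at 0.43 and S100a1 at 0.43. For Slc11a1, background shares were 0.796% at or above 0.2 and 1.72% at or below -0.2. The most like genes of Slc11a1 were the mitochondrial carrier Ucp2 at 0.34, Esd at 0.32 and the adaptor Tyrobp at 0.30. For Trf, 0.616% of genes were at or above 0.2 and 3.18% at or below -0.2, and the PAM genes past 0.2 on both plates were Apoe at 0.30 and Ctsb at 0.27, which were also at or above 0.2 with Slc40a1. For Tfrc the first 3 were Nhp2 at 0.28, Magt1 at 0.27 and Asap1 at 0.24, which rest on 8 cells with a read. With Ireb2, 2.3% of genes were at or above 0.2 and 0.411% at or below -0.2.

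Of all 23337 gene rows, 45.1% had no read in any cell, 33.4% had one in 10% of the cells or more and 9.41% in 50% or more. Of 17 other listed genes of iron uptake in the table, 11 had no read in any cell and 2 reached 10% of the cells. The unread ones include the ferrireductases Cybrd1, Steap1, Steap2 and Steap4, the ferroxidase Heph, lactoferrin (Ltf) and lipocalin 2 (Lcn2). Lrp1, a large endocytic receptor that also takes up heme bound to hemopexin, was read in 95.1% of cells. The next were the zinc and iron importer Slc39a8 at 11.2%, the endosomal ferrireductase Steap3 at 7.69% and ceruloplasmin, Cp, a ferroxidase that supports export by ferroportin, at 2.098%.

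Of 12 listed genes of iron sensing and ferritin turnover in the table, 7 reached a read in 10% of the cells, 4 reached 50% and 5 had none. Pcbp2 and Pcbp1, chaperones that deliver iron to ferritin, were read in 68.5 and 62.2% of cells. Mcoln1, a lysosomal channel that lets iron out, was read in 65.7%, and Ncoa4, which carries ferritin to the lysosome, in 58.04%. The other listed sensor of the Ireb2 family, Aco1, was read in 27.3%. Hamp, whose product hepcidin brings ferroportin down, Hamp2, Hfe2, Bmp6 and Tmprss6 had no read. None of the 7 sensing genes read in at least 10% of cells reached 0.2 with Slc40a1. Hfe, read in 39.2% of cells, was at -0.25 with Hmox1 (-0.25 and -0.23).

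The heme list holds enzymes, transporters and scavenger proteins. Of its 17 genes in the table, 13 had a read in 10% of cells or more, 4 in 50% or more and 2 in none, with a median share of 36.4%. The most detected were the biliverdin reductase Blvra and the first enzyme of heme synthesis, Alas1, at 78.3% each, and Hmox2, the constitutive heme oxygenase, at 60.8%. The hemoglobin scavenger receptor Cd163 and hemopexin, Hpx, had no read. Of the 12 mitochondrial iron and iron-sulfur genes, 9 had a read in 10% of cells or more, led by Iscu at 76.2%, Glrx5 at 66.4%, Lyrm4 at 55.9% and Isca2 at 48.95%. No heme or mitochondrial gene reached 0.2 with Slc40a1 or Hmox1 on both plates.

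Hmox1 is a textbook target of the activator Nrf2, encoded by Nfe2l2, and of the heme-sensing repressor Bach1. Nfe2l2 was read in 77.6% of cells and Bach1 in 37.8%. Of 15 listed genes, Prdx1 (98.6%), Gpx4 (96.5%) and Nfe2l2 led, followed by G6pdx at 49.7%, while the classic targets Nqo1, Slc7a11 and Me1 were each read in 1 cell. Of the 10 genes read in at least 10% of cells, 0 reached 0.2 in size with Hmox1, and their median was 0.04.

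**Figure D5:**
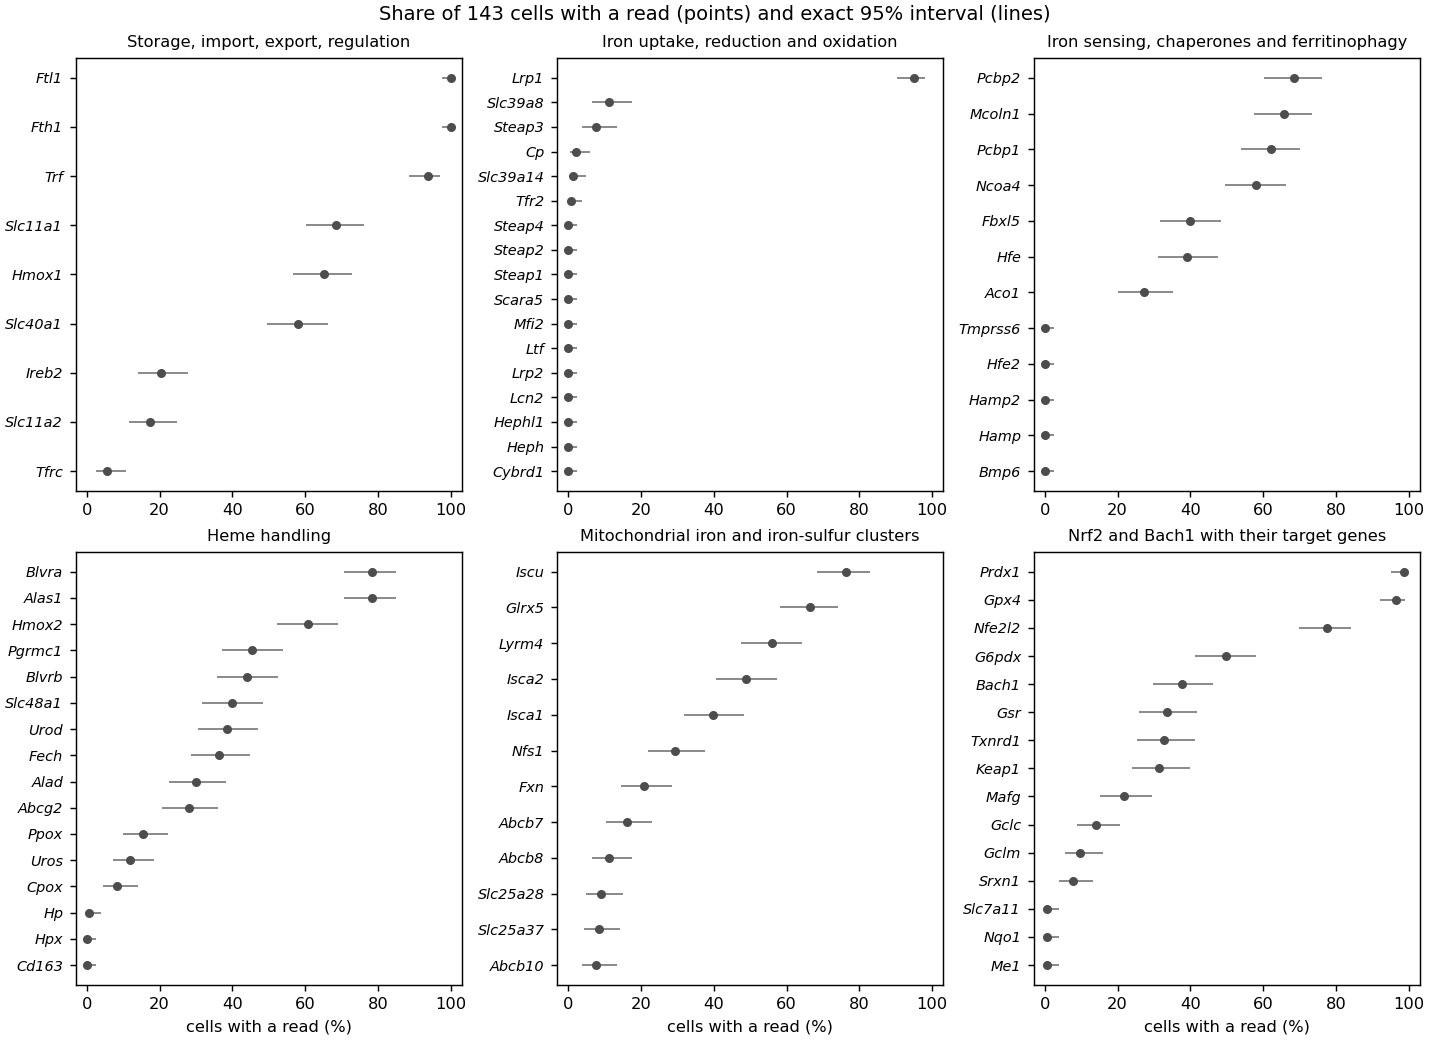
Share of the 143 cells with a read of genes of iron and heme handling (points), with exact 95% intervals (lines), grouped by role. Ferritin, Trf, Lrp1, Prdx1 and Gpx4 are read in over 90% of cells, and most genes of uptake, reduction and oxidation in none.

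Markers of other cells were counted because several iron genes are made by them. For Trf, the oligodendrocyte list had 7 of 12 genes at 0, among them Mog, Mobp, Olig1 and Sox10, while Cnp was read in 35.7% of cells, and its summed CPM ran from 0 to 629 with a median of 0. Trf had a rho of -0.15 with that sum (-0.10 and -0.23). In the choroid plexus list, Ttr and 3 other genes of 5 were at 0. For heme from red cells, Hbb-b1, Hbb-b2, Hba-a2 and Slc4a1 were at 0, 4 of the 7 erythroid genes, and the sum did not pass 12.4 CPM in any cell.

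For Slc40a1 the list whose summed CPM moved with it was that of border-associated macrophages. Its summed CPM ran from 0 to 3727 with a median of 713, and had a rho of 0.36 with Slc40a1 (0.37 and 0.36), 0.33 with Fth1 (0.27 and 0.49) and 0.21 with Ftl1 (0.24 and 0.18). Of its 11 genes, Stab1 was read in 87.4% of cells, Folr2 in 74.1%, Mrc1 in 55.9% and Ms4a7 in 21.0%, and the defining Cd163, Lyve1 and Cd209f were at 0. With Slc40a1, Stab1 had 0.28 (0.31 and 0.29) and Mrc1 0.29 (0.33 and 0.19). In the list, 6 genes were read in enough cells to be set against Slc40a1 one by one. Stab1 and Mrc1 alone reached 0.2, and only Stab1 did so on both plates. The others were Folr2 at 0.18, Ms4a7 at 0.15, Cbr2 at 0.03 and Pf4 at 0.02. The median of the 6 was 0.17, against -0.03 over all genes, of which 1.52% were at or above 0.2. The summed CPM of immediate early and stress genes, a sign of handling, had a rho of -0.21 with Slc40a1 (-0.15 and -0.32). The part of either in the values of Slc40a1 was not tested.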

How the data were processed

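The 1 file used holds whole-number read counts that the authors deposited, 23429 rows for 143 cells, of which 92 are spike-ins. Per the submitters' processing notes, the tools were Trim Galore 0.4.3, STAR 2.5.3a, HTSeq and Picard and the build was mm10; the annotation, the order of steps and strandedness are not given in the sources used here. Column sums equalled the labelled totals in 143 cells. From the counts, CPM of gene counts were computed with Python 3.11.15, pandas 2.3.3, NumPy 2.4.6 and SciPy 1.17.1. No cell was removed. Reads without molecular identifiers are not independent molecules, so intervals cover counting error only. Cells of 1 pool allow no test of conditions, and spread between animals cannot be seen. The relation and spread steps were tested on simulated data. Sequences and lengths come from GENCODE M21.

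The members, gene lists and settings were chosen with earlier results of these data known. Named were all members, the 4 most detected genes of each other iron list, listed iron, PAM and homeostatic genes at or past a rho of 0.2 on both plates, the 8 highest and 5 lowest genes by the smaller plate rho for Slc40a1 and Hmox1 (3 highest for 4 other members), among genes read in 50% of cells with a pooled CPM of 10, and other cells' markers read in over 20% of cells or at 0. Of the genes this rule takes, 2 are not reported here, though they count in the lists. Other genes were named after their values were seen, among them Cx3cr1 beside Hmox1, Nqo1, Aco1 and the uptake genes at 0. Alternatives were each plate, spike-in scaling, Rn45s left out, adjustment for detected genes, thinning to 250000 gene counts, a minimum of 10 counts, Pearson's r and genes read in 50% of cells.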

Additional observations from a re-analysis of the deposited data

How the results depend on the processing

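Of 206 alternative values, 169 stayed within their tolerance (a rho within 0.1, a share or median within its 95% interval, an excess within the spread of the plates), 30 moved and 7 reversed. The 7 were all under spike-in scaling, where the median rho of Ftl1 became 0.0757 with homeostatic, 0.13 with S-phase and 0.0617 with G2/M genes, Ftl1 was at 0.0907 with Cx3cr1, 0.0217 with Sparc and 0.0457 with Top2a, and Fth1 at 0.0184 with Lpl. On plate 2 alone, Slc40a1 with Fth1 was 0.22, Slc40a1 had reads in 72.9% of cells and a median of 182 CPM, Ireb2 was read in 10.4%, and the excess was 0.062 for Slc11a2, 0.32 for Hmox1 and 0.64 for Ireb2. Scaled to spike-ins, Hmox1 was at 0.19 with Fth1 and 0.18 with Ftl1, Ftl1 with Fth1 was 0.71, the median rho of Hmox1 with PAM genes was 0.13, and the excess was -1.11 for Ftl1, -0.19 for Fth1 and 0.64 for Slc11a2. With Rn45s left out of the total, the median was 10781 CPM for Ftl1 and 3041 CPM for Fth1, since the total is smaller by construction. At 10 counts or more, Ireb2 was read in 13.3% of cells. The 13 others that moved are 5 levels per kilobase on the union of all exons and 8 relations of Ftl1, Fth1 or Slc40a1 to listed genes under spike-in scaling. The causes were not tested unless stated. Added after the data were seen were the pairs Ftl1 with Fth1 and Slc40a1 with Trf, the exon union, spike-in scaling of the relations to listed genes and leaving out the 15 cells with the fewest genes. A cell with no read of Tfrc, Slc11a2 or Ireb2 may still carry the RNA. No paired analysis was possible because there is 1 group.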

Other observations

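Cell-cycle genes, named after their values were seen, were set against Ftl1, Fth1 and Ireb2. Of 15 S-phase genes, 14 were at or below -0.2 with Ftl1, and of 16 G2/M genes 15 were, with medians of -0.29 and -0.30 against a median of -0.01 over all genes, but scaled to spike-ins the medians turned to 0.13 and 0.06 against 0.12 over all genes. Top2a, a topoisomerase of dividing cells, was at -0.41 with Ftl1 (-0.41 and -0.46 on plates 1 and 2), and at 0.05 when scaled to spike-ins. Fth1 had 0 of 15 and 0 of 16 at or past 0.2 in size. With Ireb2, 10 of 16 G2/M genes were at or above 0.2, where 2.3% of all genes were, but 3 of the 16 were so on both plates. Their median was 0.22, and 0.23 when scaled to spike-ins, against 0.01 over all genes. Of the 15 S-phase genes, 1 was at or above 0.2 with Ireb2, with a median of 0.09. Mki67, the proliferation marker, was at 0.28 with Ireb2 (0.24 and 0.36). Ireb2 was read in 29 cells only, 5 of them on plate 2.

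Among the 8 cells with Tfrc reads, the number of S-phase genes read ran from 1 to 11 of 15 and that of G2/M genes from 0 to 13 of 16. Fth1 had a rho of 0.29 with the biliverdin reductase Blvrb (0.20 and 0.53) and of 0.40 with Ms4a7, a membrane protein of border-associated macrophages (0.36 and 0.46). Each was the highest of its list with Fth1. Of 13 heme genes, 1 was at or above 0.2, with a median of -0.02. Of 6 border-associated macrophage genes, 3 were, with a median of 0.20, where 1.72% of all genes were.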
